A study of Mus musculus with 24 samples.

Results

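The lung response to a high dose of diesel exhaust was set against that to a low dose in mice given ovalbumin (OVA), an egg protein used to provoke allergic sensitization. The group DE2000_OVA breathed exhaust at 2000 ug/m3 and the group DE500_OVA breathed it at 500 ug/m3. The comparison uses 8 of the series' 24 arrays, chosen by their titles, with 4 arrays in each group. Per the labels, mice of both groups were exposed for 4 hours a day on 5 days and received 100 ug of OVA on 3 days. The group air_OVA breathed filtered air with the same OVA, and DE2000_saline and DE500_saline had the same exhaust with saline in place of OVA. RNA from frozen whole lung was hybridized to Affymetrix arrays, which read each gene through 1 or more sets of short probes (probe sets). The labels give no strain, sex or age and do not say whether the arrays of a group are separate mice, so p-values measure the spread between arrays, which may be technical. The number of arrays limits the precision of every value.

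Diesel exhaust carries soot particles, polycyclic hydrocarbons and reactive gases. In the lung, inhaled particles are known to draw neutrophils and to make airway epithelium release acute phase and antimicrobial proteins, while oxidants are answered through the transcription factor NRF2 and hydrocarbons through the aryl hydrocarbon receptor. Allergens given to the airway favour the type 2 response, with eosinophils, alternatively activated macrophages and mucus.

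In the data, a single gene rose at the high dose, the polymeric immunoglobulin receptor Pigr, which passed without the array DE2000_OVA replicate 4 but not with it in the same fit. All 10 tested acute phase and innate defence genes had positive differences, the neutrophil gene Cd177 gave 1.75 on the log2 scale, and 14 of 17 tested circadian clock genes had negative differences. None of these genes passed in the main fit, which held all 12 OVA arrays without covariates, and their differences are given as values. Over alternatives to that fit, the lowest adjusted p in limma was 0.038 for Cd177 and 0.0432 for Cp, an acute phase gene.

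The array DE2000_OVA replicate 4 stood apart from the other 7 in its control probe sets. Its log2 ratio of 3' to 5' signal for Gapdh, a measure of how evenly a transcript was copied along its length, was 2.09, against -0.21, -0.49 and -0.26 in the other DE2000_OVA arrays and -0.22, -0.15, -0.21 and -0.17 in DE500_OVA. The actin ratio was 1.95 in that array and 0.15 to 0.44 in the other 7. The B1 control reads a short repeat that many unspliced transcripts carry. Its log2 signal was 11.06, 10.98, 10.85 and 12.43 in DE2000_OVA, against 11.41, 11.57, 11.64 and 11.94 in DE500_OVA. Without replicate 4 the B1 values of the groups did not overlap and differed by -0.67 (exact permutation test, two-sided, p = 0.0286, the smallest that 3 against 4 arrays allow; adjusted over 4 measures, 0.1143). With all 8 arrays the difference was -0.31 (exact permutation test, p = 0.4571). Log2 signals of replicate 4 correlated with those of the other 7 arrays at 0.904 to 0.923, and those 7 with each other at 0.933 to 0.953. List medians are therefore given with replicate 4 and without it. Of 87 named probe sets, 71 kept a difference within 1.5 times of that with all arrays when it was left out, and the others are given both ways where they are described. The lung markers Sftpc of alveolar type 2 cells (at least 14.42), Scgb1a1 of club cells (at least 14.25) and Ager of alveolar type 1 cells (at least 13.12) were among the strongest log2 signals on all 8 arrays.

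**Figure D1:**
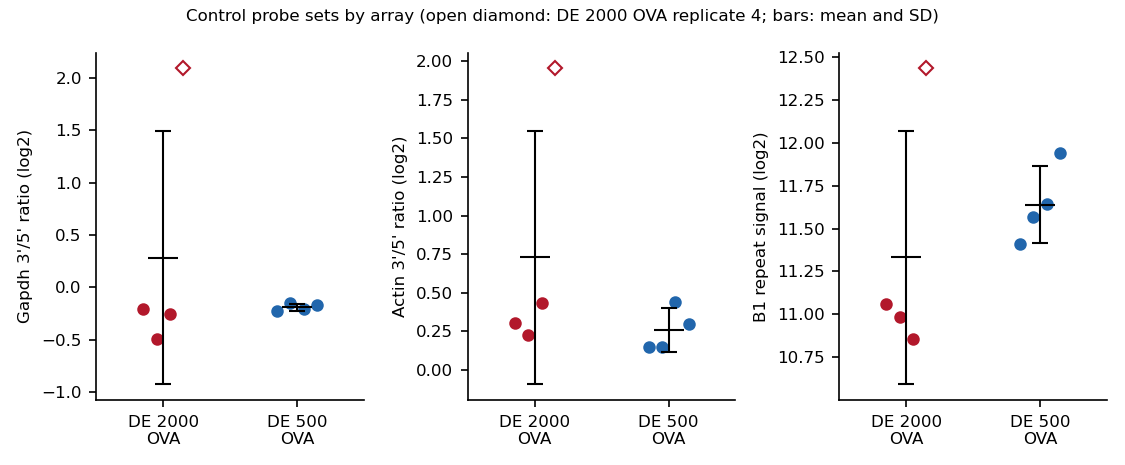
Log2 3'/5' ratio of Gapdh, log2 3'/5' ratio of actin and log2 signal of the B1 repeat control on each array of DE2000_OVA (left, red) and DE500_OVA (right, blue), with group mean and SD. Replicate 4 of DE2000_OVA (open diamond) is the highest array in all 3 panels, at 2.09, 1.95 and 12.43, and the other 3 DE2000_OVA arrays lie below all DE500_OVA arrays in the B1 panel.

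With all 8 arrays, in a fit that also held the 4 air_OVA arrays, limma (two-sided moderated test, adjusted by the Benjamini-Hochberg method) called 0 of 13575 probe sets (0%) at adjusted p under 0.05. At unadjusted p under 0.05 there were 1571 probe sets (11.6%), of which 757 (5.58%) were higher in DE2000_OVA and 814 (6%) lower. Without replicate 4, 2 probe sets were called, 0.0147% of those tested, and both read Pigr. Then 1503 probe sets (11.1%) lay under the unadjusted 0.05. With the B1 signal as a covariate 297 probe sets were called (54 higher, 243 lower), and with both B1 and the 3'/5' ratio 0. At unadjusted p under 0.05 these 2 fits held 2908 and 371 probe sets, where 679 would be expected if no probe set differed. The count thus went up with B1 alone and down with both covariates. Without replicate 4 the B1 values of the groups did not overlap, so these fits cannot tell dose and B1 signal apart. Counted by gene, taking for each gene the probe set of strongest mean signal, 486 of 8315 genes (5.84%) were higher and 443 (5.33%) lower at unadjusted p under 0.05. Groups that did not overlap were seen for 235 genes (2.83%) with DE2000_OVA higher and for 194 (2.33%) with it lower. The difference was above 0 in 47.8% of genes, with a median of -0.01 on the log2 scale. Scaling the arrays to their medians moved this median by just over 0.1, to 0.10, so a difference of that size has no settled sign.

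Pigr encodes the receptor that carries dimeric IgA and IgM through epithelial cells to the airway surface. The 250 bases before its annotated start are shown, since it is the gene the comparison turns on. The clock genes Per1 and Nr1d1, described further on, are set beside it. In each sequence (RefSeq, build GRCm38.p6, 5′ to 3′ on the gene's strand) the capitals mark the E-box CACGTG, a palindrome that reads the same on both strands and that USF, MYC and clock proteins are known to bind.
Pigr, chr1:130826434-130826683, plus strand: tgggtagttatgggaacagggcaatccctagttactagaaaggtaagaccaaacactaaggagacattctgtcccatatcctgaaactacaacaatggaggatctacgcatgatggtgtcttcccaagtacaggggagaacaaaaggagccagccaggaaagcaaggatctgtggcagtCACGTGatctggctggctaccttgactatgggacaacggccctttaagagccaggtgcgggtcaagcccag
Per1, chr11:69098699-69098948, plus strand: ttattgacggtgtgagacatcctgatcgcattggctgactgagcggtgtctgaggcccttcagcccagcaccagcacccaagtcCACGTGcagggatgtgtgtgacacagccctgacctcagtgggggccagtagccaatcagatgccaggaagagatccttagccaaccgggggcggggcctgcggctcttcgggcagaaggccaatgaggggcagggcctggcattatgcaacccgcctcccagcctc
Nr1d1, chr11:98775378-98775627, minus strand: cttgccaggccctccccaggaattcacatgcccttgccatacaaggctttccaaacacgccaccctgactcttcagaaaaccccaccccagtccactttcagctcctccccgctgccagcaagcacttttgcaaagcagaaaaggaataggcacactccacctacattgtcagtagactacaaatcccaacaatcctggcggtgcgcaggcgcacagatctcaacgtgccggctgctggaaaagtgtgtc
The E-box begins 71 bases before the start of Pigr and 166 bases before the start of Per1, and these letters do not occur in the window of Nr1d1. A second start of Per1, 1 of 2 in the table, holds none in its window. Other clock-related genes were looked at as well. The windows of Nr1d2, Per3 and Dbp hold no E-box, 2 of 2 windows of Tef hold it, and Per2 has no window in the table. Of 32851 such windows in the table, 6.02% hold it. A match in the letters is a description and not a bound site.

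The stronger Pigr probe set gave log2 signals of 10.47, 10.41, 10.64 and 11.40 in DE2000_OVA, against 9.48, 9.50, 8.79 and 9.12 in DE500_OVA. Every high-dose array lay above every low-dose array, and the mean difference was 1.51 ± 0.23 (SE), a 2.84-fold difference (limma, adjusted p = 0.166). The second probe set gave 10.30, 10.68, 10.29 and 9.32 in DE2000_OVA, against 9.09, 9.24, 9.37 and 9.22 in DE500_OVA. Here replicate 4 fell among the low-dose arrays while the other 3 lay above all of them. The array that was highest on one probe set was thus lowest in its group on the other. Over 8 arrays the second probe set differed by 0.92 ± 0.22 (limma, adjusted p = 0.354). Without replicate 4 the probe sets differed by 1.28 ± 0.18 (limma, adjusted p = 0.0341) and 1.19 ± 0.13 (2.29-fold; limma, adjusted p = 0.0026). With the 3'/5' ratio of each array as a covariate, and all arrays kept, they rose by 1.31 (limma, adjusted p = 0.0324) and 1.17 (limma, adjusted p = 0.0032). Of these calls, that of the second probe set held under each alternative tried without replicate 4. That of the stronger one was lost under 10 of 18, with adjusted p from 0.0163 to 0.215 over them. None of those alternatives held the B1 signal as a covariate. Over the alternatives to the fit of all OVA arrays, the stronger probe set gave 0.805 to 1.62 and the second 0.74 to 1.36. Their adjusted p in limma went up to 0.999 and 0.743. With B1 and the 3'/5' ratio both as covariates, neither was called. In whole lung, fewer cells of a type and less RNA per cell cannot be told apart, here and for each gene below.

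The other genes of IgA transport and airway secretion had smaller differences than the stronger Pigr probe set. Of 8 tested members of that list, Pigr among them, 7 were above 0 (median 0.32, 0.22 without replicate 4), and 3 had an unadjusted p under 0.05 with DE2000_OVA higher, beside 5.84% of all genes. These 3 were Pigr, Reg3g and Bpifb1. Reg3g is also counted in the acute phase and club cell lists below, and Ltf in the neutrophil list, so the lists are not separate. Jchain, which links IgA monomers, gave -0.09 ± 0.20 and the IgA heavy chain Igha 0.16 ± 0.23. Bpifb1, a secreted lipid-binding protein of the airway, gave 9.71, 9.51, 9.54 and 9.50 in DE2000_OVA, against 8.86, 9.12, 9.51 and 8.95 in DE500_OVA. Its groups met at 9.50 and 9.51 (0.45 ± 0.19; limma, adjusted p = 0.395), while the second Bpifb1 probe set gave 0.93 ± 0.21 (limma, adjusted p = 0.354).

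**Figure D2:**
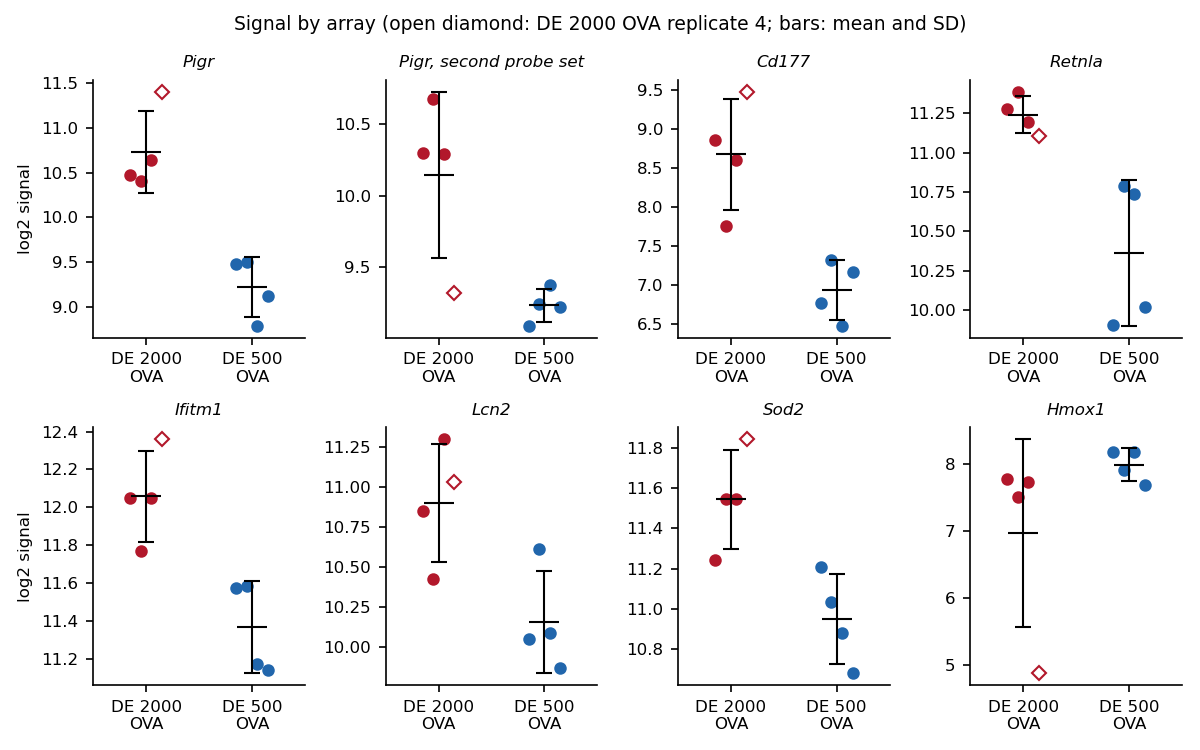
Log2 signal on each array of DE2000_OVA (left, red, replicate 4 as an open diamond) and DE500_OVA (right, blue) for Pigr (both probe sets), Cd177, Retnla, Ifitm1, Lcn2, Sod2 and Hmox1, with group mean and SD; axes do not start at 0. The groups do not overlap for the stronger Pigr probe set, Cd177, Retnla, Ifitm1 and Sod2, and for Hmox1 the mean of DE2000_OVA is drawn down by replicate 4 at 4.87.

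Cd177, a surface glycoprotein of neutrophils, gave the largest positive difference among the genes with the smallest p. Its log2 signals were 8.86, 7.76, 8.61 and 9.48 in DE2000_OVA, against 6.76, 7.32, 6.47 and 7.17 in DE500_OVA. The groups did not overlap, with the lowest high-dose array 7.76 close above the highest low-dose array 7.32. The difference was 1.75 ± 0.33 (3.37-fold; limma, adjusted p = 0.354), or 1.48 ± 0.30 (adjusted p = 0.24) without replicate 4. When the spread was estimated from all 24 arrays, Cd177 and Pigr were called (limma, adjusted p = 0.0431 and 0.00673). Of 11 tested neutrophil markers 8 were above 0 (median 0.22, 0.24 without replicate 4), beside 47.8% of all genes. Haptoglobin Hp, which binds free haemoglobin, gave 13.10, 13.46, 13.52 and 13.17 in DE2000_OVA, against 13.10, 12.98, 12.93 and 12.92 in DE500_OVA, groups that came together at 13.10 (0.33 ± 0.11; limma, adjusted p = 0.354). Hp is also counted in the acute phase and club cell lists. The calprotectin subunits S100a8 and S100a9, which bind calcium and zinc in neutrophils, gave 0.20 ± 0.28 and 0.53 ± 0.30. The collagenase Mmp8 and the granule protein Ngp were below 0, at -0.20 and -0.14. The formyl peptide receptor Fpr2 gave 0.22 ± 0.12, lactoferrin Ltf 0.37 ± 0.19. The mean log2 signal of the list, Cd177 included, lay between 9.20 and 9.45 in DE2000_OVA and between 8.88 and 9.17 in DE500_OVA. Of the 11 members 2, Cd177 and Hp, had an unadjusted p under 0.05 with DE2000_OVA higher, beside 5.84% of all genes.

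All 10 tested acute phase and innate defence genes had differences above 0, against 47.8% of all genes, with a median of 0.37 (0.33 without replicate 4), and 4 of them had an unadjusted p under 0.05, beside 5.84% of all genes that were higher. The median was 0.06 when B1 and 3'/5' values both entered the fit as covariates. Reg3g, an antibacterial lectin of epithelium, gave 9.05, 8.43, 9.20 and 9.62 in DE2000_OVA, against 7.75, 8.07, 7.72 and 8.11 in DE500_OVA. Its groups did not overlap (1.16 ± 0.34, 2.24-fold; limma, adjusted p = 0.354). Lcn2, which binds bacterial iron carriers, gave 10.85, 10.43, 11.30 and 11.04 in DE2000_OVA, against 10.05, 10.62, 10.09 and 9.87 in DE500_OVA. A single low-dose array, at 10.62, lay above the lowest high-dose array (0.75 ± 0.19; limma, adjusted p = 0.354). Ceruloplasmin Cp, a copper-carrying ferroxidase, gave 11.58, 11.10, 11.16 and 12.68 in DE2000_OVA, against 10.30, 10.67, 11.45 and 10.54 in DE500_OVA. Those values overlapped, and the difference of 0.89 ± 0.32 went to 0.54 without replicate 4. The other 6 tested Cp probe sets gave -0.32 to 0.75. Saa3, a serum amyloid A made in inflamed tissue, gave 7.69, 6.73, 8.24 and 10.35 in DE2000_OVA, against 6.85, 7.89, 7.79 and 7.21 in DE500_OVA. Replicate 4 lay far above the other 7 arrays, and the difference of 0.82 ± 0.55 became 0.12 ± 0.33 without it.

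Among type 2 response genes, Retnla stood out by its size. It encodes a secreted resistin-like protein of alternatively activated macrophages and airway epithelium. Its log2 signals were 11.28, 11.39, 11.20 and 11.11 in DE2000_OVA, against 9.91, 10.79, 10.74 and 10.02 in DE500_OVA, so the 4 high-dose arrays lay together above 2 separate pairs of low-dose arrays. The difference was 0.88 ± 0.18 (1.84-fold; limma, adjusted p = 0.354) and 0.92 ± 0.19 without replicate 4 (adjusted p = 0.24). The remaining 11 tested genes of this list had unadjusted p above 0.05, among them the chitinase-like Chil3 of macrophages (0.27 ± 0.15), the alarmin Il33 (0.20 ± 0.14) and the chitinase Chia1 (0.17 ± 0.14, 0.07 without replicate 4). The median of all 12 was 0.13, and 0.14 without replicate 4. Of 18 eosinophil and mast cell markers only 5 could be tested, and 2 of those were above 0 (median -0.12, -0.15 without replicate 4). Hdc, which makes histamine, gave 8.80, 8.99, 8.79 and 9.05 in DE2000_OVA, against 8.73, 8.37, 8.57 and 8.15 in DE500_OVA. The stem cell factor receptor Kit gave 10.74, 10.95, 10.21 and 10.22 in DE2000_OVA, against 10.82, 10.92, 11 and 11.23 in DE500_OVA. Hdc and Kit thus had opposite signs (0.45 ± 0.14 and -0.46 ± 0.17; limma, adjusted p = 0.354 and 0.36). The mast cell protease Cpa3 gave -0.17 ± 0.23 and the transcription factor Gata2 -0.12 ± 0.18 (-0.19 without replicate 4). The second probe sets of Hdc, Kit and Gata2 gave 0.23 ± 0.38, -1.15 ± 0.47 and -0.56 ± 0.27. Without replicate 4 these were 0.50, -0.495 and -0.66.

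Oxidant-response genes had mostly small positive differences. Of 32 tested NRF2 targets 27 were above 0 (median 0.13, 0.17 without replicate 4) and 7 had an unadjusted p under 0.05 with DE2000_OVA higher, beside 5.84% of all genes, or 8 without replicate 4. Thioredoxin Txn1, which reduces protein disulfides, gave 12.71, 12.92, 12.93 and 12.91 in DE2000_OVA, against 12.69, 12.57, 12.52 and 12.37 in DE500_OVA. The groups were separated by a narrow gap at 12.71 and 12.69 (0.33 ± 0.09; limma, adjusted p = 0.354). The carbonyl reductase Cbr3 gave 0.50 ± 0.16 and the pentose phosphate enzyme Tkt 0.46 ± 0.16. The other Tkt probe set gave 0.15 ± 0.14. Of 33 tested glutathione genes 30 were above 0 (median 0.19 with and without replicate 4). Gpx2, an epithelial glutathione peroxidase, gave 8.01, 8.65, 8.74 and 9.54 in DE2000_OVA, against 8.21, 8.14, 7.95 and 7.39 in DE500_OVA. Its lowest high-dose array lay within the low-dose range (0.81 ± 0.29; limma, adjusted p = 0.356). Gstp1 and Gstt1, glutathione transferases, gave 0.46 ± 0.14 and 0.50 ± 0.16, and Gpx1 gave 0.44 ± 0.14. Gclc, the first enzyme of glutathione synthesis, gave 0.03 ± 0.20, and 0.16 without replicate 4. The other Gclc probe set gave 0.25 ± 0.19.

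Hmox1, the haem oxygenase often read as a marker of oxidant exposure, gave 7.77, 7.5, 7.73 and 4.87 in DE2000_OVA, against 8.18, 7.91, 8.18 and 7.68 in DE500_OVA. The 3 other high-dose arrays lay within 7.5 to 7.77, at the lower edge of the low-dose range, and replicate 4 far below both. A log2 signal of 4.87 is a weak one, on the linear scale under 46.8, the pseudocount used in an alternative fit. The difference of -1.02 ± 0.53 (limma, adjusted p = 0.47) became -0.32 ± 0.28 without it (adjusted p = 0.7). The mitochondrial superoxide dismutase Sod2 gave 11.24, 11.54, 11.55 and 11.85 in DE2000_OVA, against 11.21, 11.03, 10.88 and 10.68 in DE500_OVA. Its groups did not overlap (0.60 ± 0.14; limma, adjusted p = 0.354), while its other probe set gave 0.14 ± 0.12. The hydrocarbon-oxidizing enzymes Cyp1a1 and Cyp1b1, targets of the aryl hydrocarbon receptor, gave -0.05 ± 0.28 and -0.06 ± 0.19, and the sign turned under quantile normalization. Without replicate 4 Cyp1b1 was at -0.12. Among metallothioneins, which bind zinc and cadmium, Mt1 gave 0.34 ± 0.26 and Mt2 0.06 ± 0.24, with replicate 4 the highest of the 8 arrays for both (11.52 and 10.70). Without that array they gave 0.11 and -0.14.

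Of the strongly expressed housekeeping genes, the median of the ribosomal list depended on the scaling, and that of the respiratory list on the covariates. Counts at unadjusted p under 0.05 fell in both lists without replicate 4. Of 70 tested oxidative phosphorylation genes, which encode subunits of the respiratory chain, 62 were above 0 (median 0.24, 0.21 without replicate 4) and 21 had an unadjusted p under 0.05 with DE2000_OVA higher, beside 5.84% of all genes. Without replicate 4 the count was 11, beside 5.15% of all genes. With B1 and 3'/5' values as covariates together, the median turned to -0.03. Uqcrb of complex III gave 13.78, 13.98, 14.12 and 14.27 in DE2000_OVA, against 13.70, 13.69, 13.56 and 13.52 in DE500_OVA (0.42 ± 0.11; limma, adjusted p = 0.354). The other Uqcrb probe set gave 0.12 ± 0.15. Of 42 tested ribosomal protein genes 36 were above 0 and 20 had an unadjusted p under 0.05 with DE2000_OVA higher, or 16 without replicate 4. Their median of 0.27 (0.22 without replicate 4) became 0.06 under quantile normalization. Rps26, Rps18, Rplp2 and Rpl6 gave 0.37, 0.28, 0.40 and 0.35. Replicate 4 had the highest mean log2 signal of all 8 arrays for both lists (11.55 and 12.60). Its part in these values was not tested beyond leaving it out.

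Medians of club cell and alveolar type 2 markers were lower under quantile normalization, while that of 6 tested goblet and mucous markers was 0.12 (0.15 without replicate 4) and 0.22 under it. Of 24 tested club cell markers 20 were above 0 (median 0.18 with and without replicate 4, or 0.06 under quantile normalization), and Nupr1, a stress-induced chromatin protein on that list, gave 10, 10.37, 10.18 and 10.27 in DE2000_OVA, against 9.79, 9.81, 9.81 and 9.77 in DE500_OVA. The groups did not overlap (0.41 ± 0.13; limma, adjusted p = 0.354), with 0.46 on the second Nupr1 probe set. Of 29 tested alveolar type 2 markers 20 were above 0, with a median of 0.08 (0.10 without replicate 4) that went to -0.01 under quantile normalization. Within that list Chil1, a chitinase-like protein, gave 12.47, 12.30, 12.86 and 12.54 in DE2000_OVA, against 12.11, 12.24, 12.09 and 11.94 in DE500_OVA. Those values did not overlap (0.45 ± 0.12; limma, adjusted p = 0.354). The surfactant protein Sftpa1 gave 0.26 ± 0.09, the class II chain Cd74 0.26 ± 0.10 and the fatty acid elongase Elovl1 0.50 ± 0.16. The second Sftpa1 probe set gave 0.08, and the other Elovl1 probe sets -0.02 and 0.42.

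**Figure D3:**
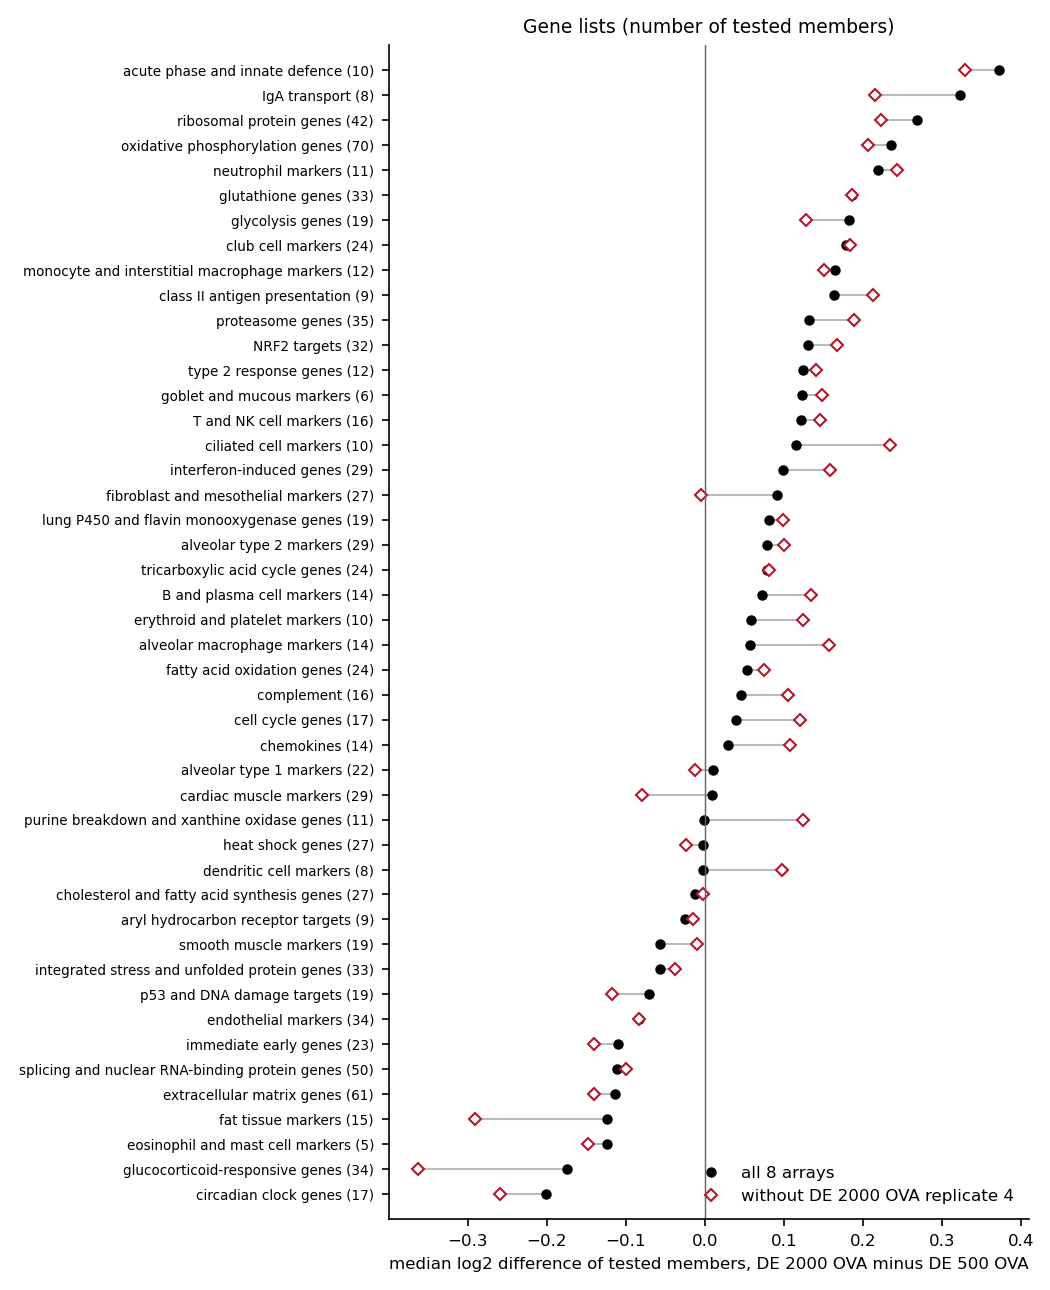
Median log2 difference, DE2000_OVA minus DE500_OVA, over the tested members of each list with at least 5 of them (number in brackets), with all 8 arrays (black) and without DE2000_OVA replicate 4 (red diamonds). Acute phase and innate defence genes have the highest median (0.37 and 0.33), and circadian clock genes (-0.20) and glucocorticoid-responsive genes (-0.17) the lowest with all arrays. Without replicate 4 glucocorticoid-responsive genes (-0.36) are lowest, followed by fat tissue markers (-0.29) and clock genes (-0.26).

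The circadian clock is a loop in which CLOCK and BMAL1 drive Per, Cry and Nr1d genes through E-boxes and are held back by their products, so the level of its genes depends on the hour of sampling. The labels give no hour of sampling, so a difference in hour and a difference in dose cannot be told apart. Of 17 tested clock genes 14 were below 0 (median -0.20, -0.26 without replicate 4), against 47.8% above 0 over all genes, and 5 had an unadjusted p under 0.05, all lower in DE2000_OVA (5.33% of all genes). In 4 clock genes (2.33% of all genes) all high-dose arrays lay below all low-dose arrays. Per1, which feeds back on the loop and also responds to glucocorticoids, gave 9.28, 9.72, 9.45 and 9.51 in DE2000_OVA, against 9.90, 9.83, 10.08 and 9.98 in DE500_OVA. Nr1d1, the repressor REV-ERB alpha, gave 8.35, 7.89, 8.54 and 7.73 in DE2000_OVA, against 9.71, 9.10, 9.50 and 8.73 in DE500_OVA. Its relative Nr1d2 gave 10.79, 10.93, 10.33 and 10.64 in DE2000_OVA, against 11.40, 11.23, 11.23 and 10.95 in DE500_OVA. In each of the 3 the groups did not overlap. The differences were -0.46 ± 0.12 for Per1 and -0.53 ± 0.16 for Nr1d2 (limma, adjusted p = 0.354 for both) and -1.14 ± 0.41 for Nr1d1 (limma, adjusted p = 0.356). Leaving out replicate 4 gave -0.46, -0.52 and -1.0 for the same genes. Per2 gave -0.59 ± 0.21, and its second probe set -0.77 ± 0.38, which became -0.36 without replicate 4. The output factor Dbp, which the loop also drives, gave -0.06 ± 0.36 (-0.11 without replicate 4), with low-dose arrays spread from 8.71 to 10.79. The second Dbp probe set gave -0.31 ± 0.34. In air_OVA, Nr1d1 ran from 8.16 to 10.64.

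**Figure D4:**
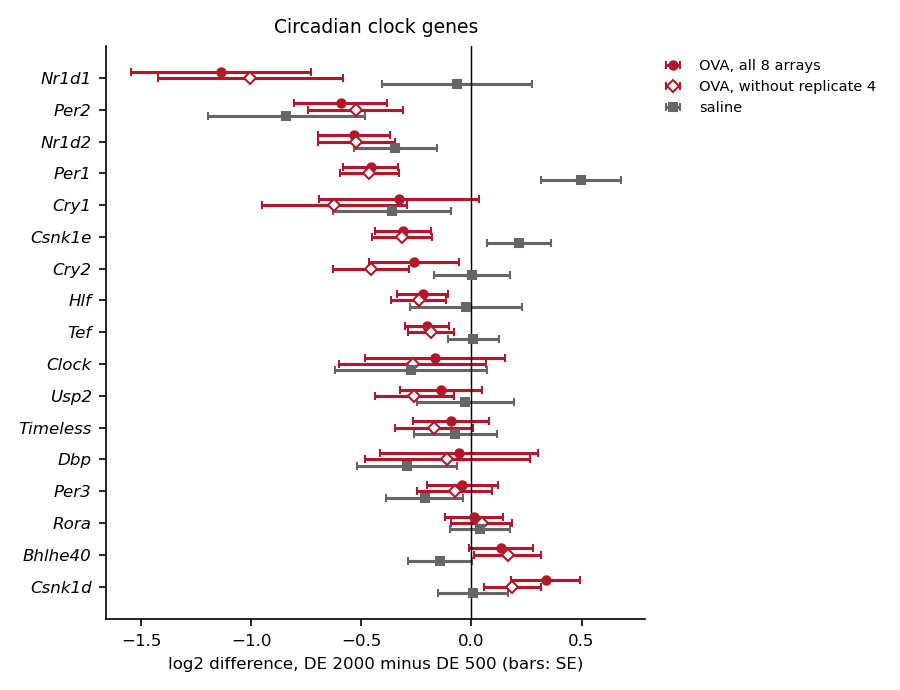
Log2 difference between 2000 and 500 ug/m3 with its SE for each of 17 tested clock genes in OVA mice with all 8 arrays (filled circles), in OVA mice without DE2000_OVA replicate 4 (open diamonds) and in saline mice (grey squares). In OVA 14 of 17 differences lie below 0, and Per1 is at -0.46 in OVA and 0.50 in saline.

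Glucocorticoid-responsive genes shared Per1 and Lcn2 with the lists above. Of 34 tested genes 24 were below 0 (median -0.17), and 3 had an unadjusted p under 0.05 with DE2000_OVA lower, beside 5.33% of all genes. Without replicate 4 the median was -0.36, and 12 had an unadjusted p under 0.05 with DE2000_OVA lower, beside 6.17% of all genes. Lpin1, a phosphatidate phosphatase, gave 9.15, 9.43, 8.91 and 9.13 in DE2000_OVA, against 9.41, 9.67, 9.72 and 9.94 in DE500_OVA. Its values met at 9.43 and 9.41 (-0.53 ± 0.15; limma, adjusted p = 0.354), with -0.89 ± 0.23 on the second Lpin1 probe set. Slc10a6, a carrier of sulfated steroids, gave -0.46 ± 0.16. Ddit4, an inhibitor of mTOR signalling, and Pdk4, a kinase that shuts down pyruvate oxidation, were chosen after their values were seen: they gave -1.25 and -0.59, and -1.90 and -0.92 without replicate 4.

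Extracellular matrix genes and fat tissue markers also had medians below 0. Of 61 tested matrix genes 39 were below 0 (median -0.11, -0.14 without replicate 4), and 10 had an unadjusted p under 0.05 with DE2000_OVA lower, beside 5.33% of all genes. Without replicate 4 the count was 12, beside 6.17%. The fibrillar collagen chain Col1a1 gave 9.68, 8.03, 9.51 and 8.89 in DE2000_OVA, against 9.85, 9.73, 10.45 and 10.20 in DE500_OVA. Those groups did not overlap (-1.03 ± 0.30; limma, adjusted p = 0.354), but its other probe set gave 0.24 ± 0.35, and -0.11 without replicate 4. Ltbp4, which anchors latent TGF-beta, gave -0.91 ± 0.26. Mgp, a matrix protein that holds back calcification, had the opposite sign, at 13.29, 13.33, 13.45 and 13.29 in DE2000_OVA, against 12.85, 12.96, 12.81 and 13 in DE500_OVA (0.44 ± 0.09; limma, adjusted p = 0.354). The collagen VI chain Col6a2 gave 0.39 ± 0.11 on one probe set and 0.05 on the other. Of 15 tested fat tissue markers 12 were below 0 (median -0.12, -0.29 without replicate 4), led by the hormone-sensitive lipase Lipe at -0.55 ± 0.24, while the adipocyte hormone Adipoq gave 0.01 ± 0.40.

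The remaining genes with the smallest p were of mixed function. They were chosen by their p in this comparison, which favours groups that do not overlap, so the lack of overlap adds no support. Such groups were seen for 2.83% of all genes with DE2000_OVA higher and for 2.33% with it lower. Ifitm1, an interferon-induced membrane protein that hinders virus entry, gave 12.05, 11.77, 12.05 and 12.36 in DE2000_OVA, against 11.57, 11.58, 11.17 and 11.14 in DE500_OVA. The lipid droplet coat protein Plin2 gave 12.33, 12.34, 12.75 and 12.50 in DE2000_OVA, against 12.03, 12.03, 12.11 and 11.75 in DE500_OVA. Smooth muscle actin Acta2 gave 12.89, 12.97, 13.02 and 13.29 in DE2000_OVA, against 12.65, 12.55, 12.61 and 12.62 in DE500_OVA. In all 3 every high-dose array lay above every low-dose array, with differences of 0.69 ± 0.16, 0.50 ± 0.12 and 0.44 ± 0.11. Among lower genes, Echdc1, which clears a side product of fatty acid synthesis, gave 7.42, 7.87, 7.71 and 7.65 in DE2000_OVA, against 8.33, 8.49, 8.20 and 8.63 in DE500_OVA. Notch4, an endothelial Notch receptor, gave 9.84, 8.87, 9.56 and 9.68 in DE2000_OVA, against 10.05, 10.41, 10.21 and 10.36 in DE500_OVA. The AAA ATPase Fignl1 gave 7.29, 6.74, 7.31 and 7.11 in DE2000_OVA, against 7.97, 7.83, 8.20 and 8.22 in DE500_OVA. These groups did not overlap either, with differences of -0.75 ± 0.15, -0.77 ± 0.18 and -0.94 ± 0.20 (limma, adjusted p = 0.354 for each of the 6). The lysosomal Laptm5 gave 0.75 ± 0.16, but its other probe sets gave -0.27 and 0.20. The second probe set of Notch4 gave 0.15 ± 0.17. Of the other genes with the smallest p, 5 had positive differences: the DNA repair polymerase Polb (0.63), the nuclear pore protein Pom121 (0.91), the phosphatase Ppm1b (0.48), the growth arrest protein Gas1 (0.74) and the membrane-sorting ATPase Vps4b (0.42). Their groups did not overlap, but the other probe sets of Polb, Pom121 and Ppm1b gave -0.34 to 0.11. The other Gas1 probe set gave 0.225, and 0.031 without replicate 4. A further 7 had negative differences without overlap, from -0.74 for Lrrc58 and Lmcd1 to -0.63 for the chromatin regulator Kansl1. Between these lay the mannosyltransferase Alg2, the splicing factor Gpatch8, the spindle protein Tubgcp4 and envoplakin Evpl of epithelial junctions, at -0.68, -0.66, -0.64 and -0.68. The other Gpatch8 probe sets had the opposite sign, at 0.24 and 0.09, and the other Tubgcp4 probe set gave 0 ± 0.17.

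Leaving out replicate 4 brought forward a set of genes in which that array had gone against its group. They were chosen by their p without that array, which favours this order of arrays, so the order adds no support. Rab5c, a small GTPase of early endosomes, gave 9.05, 9.23, 9.56 and 11.70 in DE2000_OVA, against 10.10, 10.43, 10.02 and 10.19 in DE500_OVA. Bace2, a membrane protease, gave 5.23, 4.65, 6.59 and 8.42 in DE2000_OVA, against 8.01, 7.32, 7.84 and 7.39 in DE500_OVA. In both genes the first 3 arrays lay below all low-dose arrays and replicate 4 above them. Their differences were -0.30 ± 0.43 and -1.42 ± 0.61 with all arrays, and -0.91 ± 0.16 and -2.15 ± 0.40 without replicate 4 (limma, adjusted p = 0.207 and 0.23). The other Bace2 probe set gave -0.28 with all arrays and -0.20 ± 0.20 without replicate 4. The Bace2 values of 5.23 and 4.65 are linear signals under 46.8, the pseudocount used in an alternative fit, so its large difference rests on weak signals. Dnajb12, a cochaperone of the endoplasmic reticulum, showed the same order of arrays as Rab5c and Bace2 (-0.68 and -1.07). So did the strongest probe set of the growth factor carrier Igfbp4 (-0.28 and -0.51). The other Igfbp4 probe sets gave -0.67, -0.50, -0.13 and -0.11 with all arrays, and -1.01, -0.15, -0.24 and -0.08 without replicate 4. On the one at -0.50 replicate 4 was instead the lowest array, at 9.58. Dennd1a, an endosomal exchange factor, gave -1.67 ± 0.49 and -2.14 ± 0.43, and the tethering protein Vps53 -0.63 ± 0.20 and -0.80 ± 0.17. The other Vps53 probe set gave -0.28 and -0.36. Dennd1a read 6.44, 4.26, 5.05 and 7.12 in DE2000_OVA, against 7.23 to 7.53 in DE500_OVA. Its values of 4.26 and 5.05 are likewise linear signals under 46.8. The chemokine-like Cklf gave -1.27 ± 0.39 and -1.60 ± 0.34, but its other probe sets gave -0.19 and 0.08. Dennd1a was called without replicate 4 when the other 23 arrays entered the fit (limma, adjusted p = 0.0419), and Cklf when only the 7 arrays compared did (adjusted p = 0.0188).

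The same dose step was measured in saline mice, on 8 arrays that share none with the OVA comparison. There, 7 probe sets of 6 genes were called, 0.0516% of those tested, all higher in DE2000_saline. They read Pigr (2 probe sets), Cd177, Lcn2, Cp, Saa3 and D17H6S56E-5, named here as in the array's annotation. Pigr rose by 1.67 and 1.86 (limma, adjusted p = 0.00356 for both) and Cd177 by 2.77 (adjusted p = 0.000428), beside 1.51, 0.92 and 1.75 in OVA. Saa3 rose by 2.64 in saline (limma, adjusted p = 0.00356), with 10.12, 10.54, 9.90 and 10.06 in DE2000_saline, against 8.02, 6.5, 7.59 and 7.95 in DE500_saline. Lcn2 and Cp rose by 1.09 and 1.26 in saline, beside 0.75 and 0.89 in OVA. The Gapdh 3'/5' ratio on the saline arrays ran from 1.64 to 2.44 in DE2000_saline and from 0.08 to 4.91 in DE500_saline.

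The difference between the dose step in OVA and that in saline was tested in 1 model over 24 arrays. It was called for 0 of 13575 probe sets (0%), with 655 (4.83%) at an unadjusted p under 0.05 in limma. The OVA step minus the saline step was -1.82 ± 0.68 for Saa3 (limma interaction, adjusted p = 0.954), -1.02 ± 0.42 for Cd177 (adjusted p = 0.954) and -0.16 ± 0.31 for the stronger Pigr probe set (adjusted p = 0.982). For the second Pigr probe set, on which replicate 4 was lowest in its group, it was -0.95 ± 0.33 (limma interaction, adjusted p = 0.954). Per1 had opposite signs in the arms: in saline it gave 11.16, 10.46, 10.39 and 10.47 in DE2000_saline, against 10.25, 10.23, 10.11 and 9.90 in DE500_saline. The arms differed by -0.95 ± 0.22 for Per1 (limma interaction, unadjusted p = 0.000241, adjusted p = 0.954).

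Filtered air gives the base of the dose series in OVA mice. The comparisons with air share the arrays above and are given as levels only. Stronger-probe-set log2 signals of Pigr averaged 9.17 ± 0.27 in air_OVA, 9.22 ± 0.34 in DE500_OVA and 10.73 ± 0.46 in DE2000_OVA (SD, n = 4 each). Cd177 averaged 6.78 ± 0.37 in air_OVA, 6.93 ± 0.39 in DE500_OVA and 8.68 ± 0.71 in DE2000_OVA. For both genes the air and low-dose groups overlapped and differed by less than their SD, and the high-dose group lay above them. Lcn2 averaged 10.22 ± 0.18, 10.16 ± 0.32 and 10.90 ± 0.37 over the same series, and Retnla 10.49 ± 0.08, 10.36 ± 0.47 and 11.24 ± 0.12. Per1 averaged 10.01 ± 0.14 in air_OVA, 9.95 ± 0.11 in DE500_OVA and 9.49 ± 0.18 in DE2000_OVA.

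**Figure D5:**
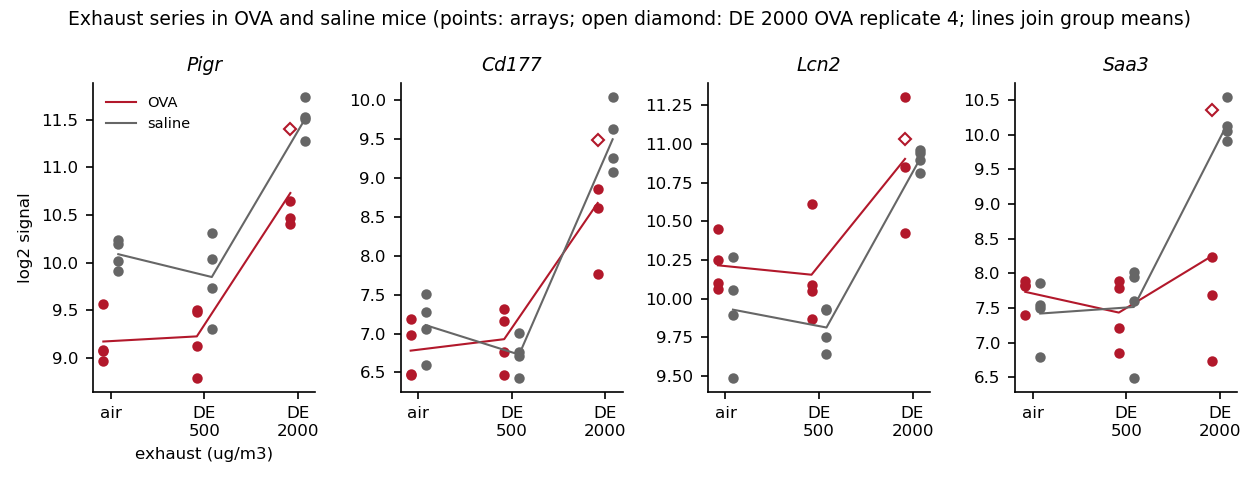
Log2 signal of Pigr (stronger probe set), Cd177, Lcn2 and Saa3 on each array against exhaust (air, 500 and 2000 ug/m3) in OVA mice (red) and saline mice (grey), with lines through group means and DE2000_OVA replicate 4 as an open diamond; axes do not start at 0. Air and 500 ug/m3 lie at like levels in each arm, and in the Saa3 panel replicate 4, at 10.35, is the one OVA array within the range of DE2000_saline.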

How the data were processed

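Lung RNA was measured on 24 Affymetrix arrays in 6 groups of 4, of which 8 arrays enter the comparison. Per the labels' protocols, 2 ug of total RNA went into each biotin-labelled cRNA. What the authors deposited is a linear intensity for every probe set and array, computed with MAS5 per the submitters' processing notes (version not given in the sources used here). Means trimmed by 2% at each end ran from 500.1 to 500.2, so the arrays had been scaled alike, and array medians lay between 182 and 243. No counts exist, and precision rests on the number of arrays.

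Of 22690 probe sets, 64 controls were set aside, and the array's GEO annotation names 1 gene for 20380 of the rest, several for 691 and none for 1555. Of all symbols, 29 were not in the RefSeq table and were kept as given. Intensities were taken to log2 without a pseudocount. Probe sets with a mean over 24 arrays above the 40th percentile (geometric mean signal 138) were tested, 13575 in number, for 8315 genes. No tested probe set was assigned to Gapdh alone, since control probe sets were set aside, so that gene was not tested.

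A mean per group was fitted to the 12 OVA arrays, and a second fit left out DE2000_OVA replicate 4, in R 4.3.3 with the package limma 3.58.1 (eBayes with a trend on the mean; Benjamini-Hochberg over tested probe sets; called at adjusted p under 0.05). Saline arrays were fitted apart, and the interaction over 24 arrays. Values after ± are SE unless said to be SD. Control probe sets were compared by exact permutation. Tables and figures used Python 3.11.15, pandas 2.3.3 and matplotlib 3.10.9. Simulated data with known changes were used to test the fit.

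The members, the 47 gene lists and the alternatives were chosen with earlier results of these data known, and lists are described by counts and medians without a test. Named genes are the 24 with the smallest p, the 10 with the smallest p without replicate 4, up to 4 per list described (the 5 highest and 5 lowest medians and 10 fixed lists, 15 in all) and 21 fixed genes; clone names were passed over. Alternatives covered the samples fitted, normalization, a pseudocount of 46.8, filters, variance models, the replicate number as a block, and the 3'/5' ratio and B1 signal as covariates. RefSeq promoter sequences were cut to the 250 bases before the start.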

Additional observations from a re-analysis of the deposited data

Results flagged for a closer look

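Within groups of 4, a sample was singled out when its gap to the nearest other sample, divided by the group's range, exceeded Dixon's critical value. Of 184 groups looked at 12 held such a sample, and chance alone gives about 1 in 20. Replicate 4 of DE2000_OVA accounts for 9 of them. It was high in the Gapdh 3'/5' ratio (2.09, the others -0.49 to -0.21), the actin 3'/5' ratio (1.95, the others 0.23 to 0.44) and the B1 signal (12.43, the others 10.85 to 11.06). In log2 signal it was high for Polb (9.36, the others 8.91 to 8.97), Gstp1 (12.86, the others 12.41 to 12.47), Elovl1 (12.48, the others 12.08 to 12.14) and Mt2 (10.70, the others 9.85 to 9.94). It was low for Hmox1 (4.87, the others 7.5 to 7.77) and Lrrc58 (10.26, the others 10.59 to 10.65). The remaining samples were DE2000_OVA replicate 1 for Txn1, low at 12.71 beside 12.92 to 12.93, DE500_OVA replicate 1 for Laptm5, high at 10.67 beside 10.24 to 10.30, and DE500_OVA replicate 4 for Igfbp4, high at 12.75 beside 12.57 to 12.59.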

How the results depend on the processing

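The count of 0 called probe sets in the fit of 12 OVA arrays was kept under 20 of 26 alternatives. It was 2 with all 24 arrays in the fit (Pigr and Cd177), 2 with the 3'/5' covariate (both Pigr), 1 with 1 probe set per gene (Pigr), 2 without a filter (Erg and Hba-a1, both lower) and 297 with the B1 signal as covariate (54 higher, 243 lower), against 0 with both covariates. Among others, the 297 held Cd177, Hmox1, Retnla, Sod2, Echdc1, Ifitm1, Acta2, Cp and Uqcrb (limma, adjusted p from 0.038 to 0.0474). Leaving out 1 array gave 0 to 2, the 2 coming without DE2000_OVA replicate 4. Without that replicate the 2 calls became 1 under quantile normalization, under array weights and under the replicate block, 3 with all 23 arrays (adding Dennd1a) and with the 7 arrays compared (adding Cklf), 4 without a filter (Erg, Hba-a1 and both Pigr probe sets), and 1 to 23 with a further array left out. The 23 (5 higher, 18 lower) came without DE2000_OVA replicate 1, and the 1 without air_OVA replicate 1 or 2 or DE500_OVA replicate 3 or 4. The count of 2 with the 3'/5' covariate, or without DE2000_OVA replicate 2 or 3, held 1 Pigr probe set and 1 lower probe set. The replicate numbers were not used as pairs, since deviations of same-numbered arrays correlated at -0.13 to 0.13 between the groups. The block left 0 calls over all OVA arrays, 5 of 7 in saline and 0 for the interaction. In saline the 7 calls became 132 (45 higher, 87 lower) with the 3'/5' covariate and 4 to 7 without 1 array, the 4 coming without DE2000_saline replicate 2, 3 or 4. The interaction had 3 calls with the 3'/5' covariate (Rab18, Wls and Fignl1). The cause of these moves was not tested.

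Of 88 named probe sets 67 kept their sign under each alternative and 21 did not, among them genes with differences of 0.81 (Gpx2) and 0.82 (Saa3). The Gapdh 3'/5' difference turned to -0.127 without replicate 4. Quantile normalization gave 0.041 for Cyp1b1, 0.038 for Cyp1a1 and -0.015 for Sftpa1. Scaling to medians gave 0.059 for Cyp1b1 and Dbp and 0.062 for Cyp1a1. Array weights gave -0.10 and the 3'/5' covariate -0.13 for Mt2. The B1 covariate gave 0.023 for Cyp1b1, -0.06 for Gclc and 0.12 for Rab5c. Both covariates gave 0.36 for Cyp1b1, 0.29 for Cpa3, 0.32 for Retn, 0.18 for Kit, -0.085 for Il33, -0.015 for Cox7a2, -0.007 for Chil3, -0.58 for Mt1, -0.39 for Mt2, -0.013 for Ndufa13, -0.28 for Gpx2, -0.17 for Ltf, -0.13 for Saa3, -0.095 for Ndufa3 and -0.086 for Gpx1. Leaving out 1 array gave -0.26 to 0.16 for Cyp1a1, -0.16 to 0.11 for Cyp1b1, -0.38 to 0.32 for Dbp, -0.26 to 0.018 for Gata2, -0.089 to 0.16 for Gclc and -0.14 to 0.15 for Mt2. With replicate 4 already out, the ranges were -0.11 to 0.001 for Acly, -0.29 to 0.016 for Cpa3, -0.39 to 0.24 for Cyp1a1, -0.30 to 0.11 for Cyp1b1, -0.43 to 0.27 for Dbp, -0.014 to 0.32 for Mt1 and -0.22 to 0.53 for Saa3, and the replicate block gave 0.066 for Cyp1a1. Probe sets under the signal filter were not tested, and nothing is reported here of their genes.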
